A study of Homo sapiens with 4 samples.

Results

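The nonsense-mediated decay (NMD) factors UPF1, UPF2, UPF3A, UPF3B, SMG1, SMG5, SMG6, SMG8 and SMG9 were followed in K562 leukemia cells treated with SF1-8. The 9 genes were taken by name as factors of one pathway, with earlier results of these data known, and the rule itself uses no measured difference. Each gene was read from the row of the deposited table that names it, and where several rows do, from the row with the highest mean count. All 9 genes had a row, out of 64873 rows in all, and all 9 passed the filter on low counts.

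NMD is the surveillance pathway that removes mRNAs in which a ribosome terminates too early, for example upstream of an exon junction complex left behind by splicing. In outline, the helicase UPF1 meets the terminating ribosome, UPF2 and UPF3 proteins link it to the exon junction complex, the kinase SMG1 with its partners SMG8 and SMG9 phosphorylates UPF1, and phosphorylated UPF1 recruits SMG6, an endonuclease, and SMG5, an adaptor of decay. Altered splicing is a common source of NMD substrates, and mRNAs of several NMD factors are themselves NMD substrates, so that the pathway can adjust its own factors.

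RNA-seq was carried out on K562 cells, an established erythroleukemia line, that overexpress U2AF1 carrying the S34F mutation, an allele that both groups share. The control group was given DMSO, the solvent, and the treated group was given SF1-8, an inhibitor of the UHM domain of U2AF1, at 30 μM. The labels give a treatment of 48 h, with 2 libraries in each group, prepared from total RNA depleted of ribosomal RNA. It is not stated whether the line is a single clone or whether the libraries come from separate cultures, so the p-values measure only the spread between these libraries.

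Levels are given as FPKM, fragments scaled to gene length and library depth, as deposited by the authors, and changes as log2 fold changes fitted to the deposited counts. The total count was between 45522905 and 67554610 per library, with the lowest in DMSO 1, and the 9 rows held between 0.123% and 0.132% of it. The deposited counts are estimates in which 4 is the commonest value above 0, so no counting error was computed. Rows of ribosomal RNA loci took between 11.0% and 14.0% of the counts. Of the erythroid markers, GATA1 had an FPKM between 75.9 and 79.1 and KLF1 between 23.9 and 25.9, and all 8 were at 0.868 or above in every library. Of markers of other cells, CD3E, MS4A1 and ALB had no FPKM above 0.270, while the epithelial marker EPCAM was between 14.2 and 16.8, at like levels in both groups.

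Of the members, SMG1 and UPF3A have near-identical copies in the genome, which bears on how far their reads can be told apart. In GENCODE version 29 (GRCh38), the longest coding transcript of SMG1 has 63 exons and 10983 coding bases. Of its windows of 75 bases, 14.6% were found unchanged in an annotated transcript of another gene, most often of its pseudogenes SMG1P2 (8.30%) and SMG1P5 (7.87%) on the same chromosome. The stretch below, coding bases 61 to 120 of SMG1, is shown with the copies that hold it, and capitals mark the bases in which a copy differs from SMG1.
SMG1: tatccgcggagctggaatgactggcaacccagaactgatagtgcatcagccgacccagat
SMG1P1: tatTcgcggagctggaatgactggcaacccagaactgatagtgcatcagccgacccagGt
SMG1P2: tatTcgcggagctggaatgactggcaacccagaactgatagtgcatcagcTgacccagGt
SMG1P3: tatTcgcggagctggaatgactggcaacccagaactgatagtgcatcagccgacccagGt
SMG1P5: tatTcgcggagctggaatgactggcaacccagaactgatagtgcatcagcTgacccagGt
Counted from 1 at the 5′ end of the stretch, with the SMG1 base first, SMG1P1 and SMG1P3 carried C4T and A59G, and SMG1P2 and SMG1P5 also C51T. Between the first and the next of these positions SMG1 and all 4 copies have the same bases.

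The paralogs UPF3A and UPF3B, by contrast, shared no window of 75 bases with each other. Their most alike coding stretch of 60 bases, shown because the ratio of both genes is given further on, held 9 differences, in capitals.
UPF3A: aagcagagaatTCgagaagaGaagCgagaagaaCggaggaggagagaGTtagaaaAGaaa
UPF3B: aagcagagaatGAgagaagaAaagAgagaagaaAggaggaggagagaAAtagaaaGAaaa
The UPF3A stretch covers coding bases 682 to 741 and that of UPF3B coding bases 619 to 678. UPF3A shared 32.8% of its windows with the pseudogenes UPF3AP1, UPF3AP2 and UPF3AP3, whose own rows had no FPKM above 0.870 in any library. UPF1, UPF2, UPF3B, SMG5 and SMG9 shared no window with another gene.

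Between SF1-8 and DMSO, 0 of the 9 NMD factors passed an adjusted p of 0.05 in the edgeR quasi-likelihood test, and 0 of the 9 had an unadjusted p under 0.05. Over all 26167 genes tested, 11 passed the adjusted threshold, which is 0.042% (0.0191% higher and 0.0229% lower with SF1-8), and 4.33% had an unadjusted p under 0.05. DESeq2 also called 0 of the 9, against 0.652% of the genes to which it gave an adjusted p. Limma on FPKM called 0 genes in all, so its 0 of the 9 says nothing about the members. The log2 fold changes of the 9 ran from -0.021 for SMG6 to 0.22 for the row of SMG8, with 7 higher and 2 lower with SF1-8 and a median of 0.029. The median over all genes tested was -0.011. The split into 7 and 2 holds for the fit to counts. In mean FPKM, UPF2, UPF3A and SMG1 among these 7 were instead slightly lower with SF1-8. In 8 of the 9 the change was under 0.1 in size on the log2 scale, as it was in 53.3% of the 9076 tested rows with a mean FPKM from 2 to 40. Adjusted p-values of the 9 lay between 0.970 and 0.999 (edgeR quasi-likelihood test, Benjamini-Hochberg adjustment).

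**Figure D1:**
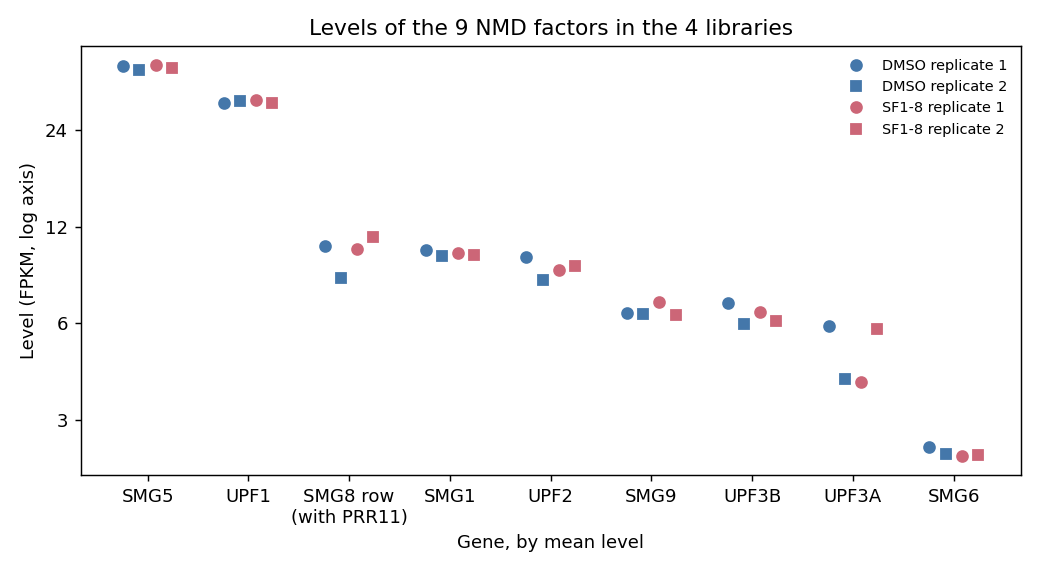
FPKM (log axis) of the 9 NMD factors in the 4 libraries, ordered by mean level, with DMSO in blue, SF1-8 in red, circles for replicate 1 and squares for replicate 2. SMG5 and UPF1 stood above all others in every library, and the groups overlapped in 8 of the 9 genes, the exception being SMG6.

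UPF1, the RNA helicase at the centre of NMD, lies at chr19:18831959-18868230 on the plus strand of GRCh38. Its FPKM was 29.1 and 29.4 in the DMSO libraries and 29.7 and 29.1 in the SF1-8 libraries. The 4 libraries lay within a few percent of each other and the groups overlapped. SF1-8 over DMSO gave a log2 fold change of 0.035 (SE, standard error, 0.069), and its 95% interval ran from -0.14 to 0.21, which corresponds to folds between 0.908 and 1.16. UPF1 was thus bounded more closely than most members, although changes within this interval remain compatible with the values of these 2 libraries per group.

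UPF2, at chr10:11920022-12042831 on the minus strand, encodes the adaptor that binds both UPF1 and the UPF3 proteins. It was measured at an FPKM of 9.65 and 8.17 in the DMSO libraries and 8.75 and 9.05 in the SF1-8 libraries. Both treated libraries lay between the DMSO libraries. The fit to the counts gave a log2 fold change of 0.029 (SE 0.092, 95% interval from -0.20 to 0.26), while the mean FPKM was 8.91 with DMSO and 8.90 with SF1-8. Relative to UPF2, the FPKM of UPF1 was 3.01 and 3.60 times as high with DMSO and 3.40 and 3.22 times with SF1-8, again with the treated libraries inside the control range.

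UPF3B, at chrX:119805311-119852971 on the minus strand, and UPF3A, at chr13:114281601-114305817 on the plus strand, encode the paralogous proteins that connect UPF2 with the exon junction complex. The FPKM of UPF3B was 6.95 and 5.95 in the DMSO libraries and 6.49 and 6.09 in the SF1-8 libraries (log2 fold change -0.0042, SE 0.115, 95% interval from -0.30 to 0.29). UPF3A was measured at an FPKM of 5.86 and 4.02 in the DMSO libraries and 3.93 and 5.75 in the SF1-8 libraries. Each group thus held a high and a low library of UPF3A, and the group means were 4.94 ± 1.30 (SD, n = 2) for DMSO and 4.84 ± 1.29 (SD, n = 2) for SF1-8. UPF3A had a log2 fold change of 0.0055 (SE 0.239), and its 95% interval, from -0.60 to 0.61, was the widest among the 9 genes. For UPF3A the difference between replicates, averaged over both groups, was 0.55 on the log2 scale, larger than in 92.1% of the 5624 tested rows with a mean FPKM within 2-fold of its own.

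The libraries high in UPF3A, DMSO 1 and SF1-8 2, were also those with the lower share of counts on ribosomal RNA loci, at 11.0% and 11.8%, against 14.0% in DMSO 2 and 13.8% in SF1-8 1. The part of this difference in the UPF3A values was not tested. The log2 fold change of UPF3A was 0.26 without DMSO 1, -0.20 without DMSO 2, 0.25 without SF1-8 1 and -0.28 without SF1-8 2, so its direction rests on single libraries. A further pair of rows inside the UPF3A locus carries the same symbol without a strand. One, at chr13:114288725-114291366, was measured at an FPKM of 1.62 and 1.42 in the DMSO libraries and 1.80 and 1.13 in the SF1-8 libraries. The other, at chr13:114293539-114294594, had 1.46 and 0.639 with DMSO and 0.116 and 0.563 with SF1-8, which did not overlap, and its log2 fold change was -1.57 (SE 0.796, adjusted p = 0.970 in the edgeR quasi-likelihood test). With all 3 rows summed before the fit, the log2 fold change of UPF3A was -0.029.

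**Figure D2:**
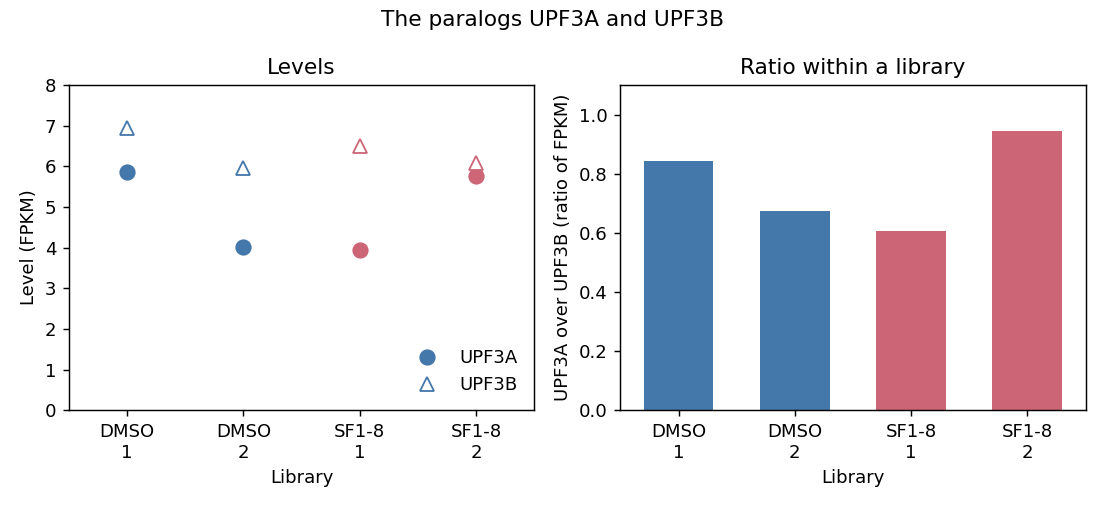
Left, FPKM of UPF3A (filled circles) and UPF3B (open triangles) in each library; right, the ratio of UPF3A to UPF3B within a library, with DMSO in blue and SF1-8 in red. The ratio varied more within a group, from 0.605 to 0.945 with SF1-8, than between the group means of 0.759 and 0.775.

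Depth cancels in the ratio of UPF3A to UPF3B within a library. The ratio was 0.843 and 0.675 in the DMSO libraries and 0.605 and 0.945 in the SF1-8 libraries. Averaged as log2 ratios, the groups differed by 0.0034, less than the spread within either group (exact permutation test, two-sided p = 1.00, where 2 libraries against 2 cannot give a p below 0.333). In every library UPF3B had the higher FPKM of the pair, but UPF3A had the higher count. The counts of UPF3A were 1975 and 1894 with DMSO and 1918 and 2709 with SF1-8. Those of UPF3B were 1323 and 1588 with DMSO and 1793 and 1622 with SF1-8. Which of the pair is higher thus depends on the measure. FPKM are also scaled to a length for each row, which is not given in the sources used here. In GENCODE the longest coding transcripts have near-equal lengths, 2387 bases for UPF3A and 2378 for UPF3B. The part of length in this reversal was not tested.

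**Figure D3:**
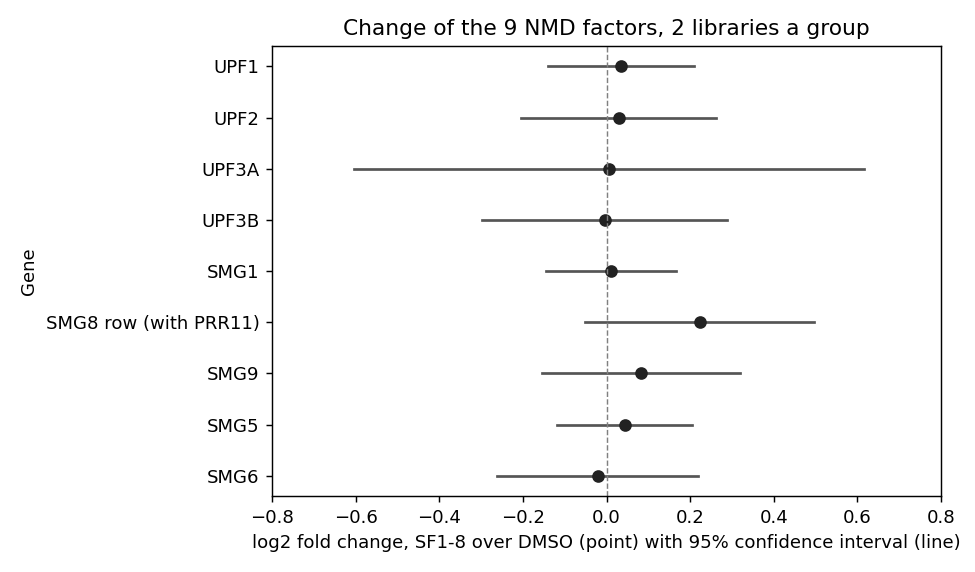
log2 fold change of each NMD factor, SF1-8 over DMSO (points), with its 95% confidence interval from the edgeR quasi-likelihood fit (lines), 2 libraries per group. All 9 intervals contain 0, and they are narrowest for SMG1, SMG5 and UPF1 and widest for UPF3A.

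SMG1, at chr16:18804860-18926447 on the minus strand, encodes the large kinase that phosphorylates UPF1. Its FPKM was 10.2 and 9.75 in the DMSO libraries and 9.89 and 9.77 in the SF1-8 libraries. The groups overlapped, and the log2 fold change was 0.011 (SE 0.061, 95% interval from -0.14 to 0.17), which corresponds to folds between 0.905 and 1.12. Since SMG1 shares windows with its pseudogenes, and how reads with several equally good positions were counted is not given in the sources used here, the share of the copies in this value was not tested.

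The rows of the SMG1 copies, several of which also span NPIPB genes, were measured in the same libraries. The row of SMG1P1 with NPIPB5 had an FPKM of 8.21 and 8.55 in the DMSO libraries and 9.02 and 8.68 in the SF1-8 libraries, close to the level of SMG1 itself. Its log2 fold change was 0.10 (SE 0.076). The row of SMG1P5 with NPIPB13 had 3.14 and 2.75 with DMSO and 2.21 and 2.06 with SF1-8. For this row the log2 fold change was -0.44 (SE 0.088), with an unadjusted p of 0.0040 and an adjusted p of 0.774 in the edgeR quasi-likelihood test, so it did not pass. SMG1P7 had 2.03 and 1.94 with DMSO and 2.55 and 2.23 with SF1-8 (log2 fold change 0.29, SE 0.138). Of the 11 rows of copies of SMG1 and UPF3A with a mean count of at least 10, 0 passed an adjusted p of 0.05 and 1 had an unadjusted p under 0.05 in the edgeR quasi-likelihood test, against 0.042% and 4.33% of all genes, with 7 higher and 4 lower. In 6 of these 11 rows the groups did not overlap in FPKM, against 34.2% of all rows tested.

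SMG8, a subunit that together with SMG9 holds back the kinase activity of SMG1, could not be read alone. Its row, at chr17:59155732-59215247 on the plus strand, also names PRR11, a gene of dividing cells, and AC099850, and GENCODE places SMG8 itself at chr17:59209400-59215247. The FPKM of the row was 10.4 and 8.29 in the DMSO libraries and 10.2 and 11.1 in the SF1-8 libraries. DMSO 2 was the lowest of the 4 libraries, while DMSO 1 lay among the treated libraries. The log2 fold change of the row was 0.22 (SE 0.108, 95% interval from -0.052 to 0.50, adjusted p = 0.970 in the edgeR quasi-likelihood test), the largest of the 9. It was 0.35 without DMSO 1 (adjusted p = 0.889 by the same quasi-likelihood test) and 0.11 without DMSO 2. Without DMSO 1 it was the 1 member with an unadjusted p under 0.05, against 1341 of the 27835 genes then tested. How the row divides between SMG8 and PRR11 cannot be told from these values.

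SMG9, at chr19:43727983-43754962 on the minus strand, was measured at an FPKM of 6.45 and 6.41 in the DMSO libraries and 6.99 and 6.37 in the SF1-8 libraries. SF1-8 1 was the highest and SF1-8 2 the lowest of the 4 libraries. Its fitted log2 fold change was 0.082 (SE 0.093, 95% interval from -0.16 to 0.32), and it was 0.010 without SF1-8 1 and 0.16 without SF1-8 2.

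Of the effectors, SMG5, which binds phosphorylated UPF1, lies at chr1:156249224-156282825 on the minus strand and had the highest FPKM of the 9. Its FPKM was 38.0 and 36.8 in the DMSO libraries and 38.1 and 37.5 in the SF1-8 libraries. The log2 fold change was 0.043 (SE 0.064, 95% interval from -0.12 to 0.21), which corresponds to folds between 0.921 and 1.15.

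SMG6, the endonuclease that cleaves NMD substrates near the stop codon, lies at chr17:2059839-2303785 on the minus strand and had the lowest FPKM. Its FPKM was 2.48 and 2.34 in the DMSO libraries and 2.32 and 2.33 in the SF1-8 libraries. It was the only 1 of the 9 in which the groups did not overlap, which held for 34.2% of all rows tested, 20.0% in the direction of lower with SF1-8. The gap was small beside the fit's error, with a log2 fold change of -0.021 (SE 0.094, 95% interval from -0.26 to 0.22). The longest coding transcript of SMG6 shares 1708 of its 5886 windows with HIC1, which overlaps it on the opposite strand, and whether the counting used strand is not given in the sources used here.

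Ordered by mean FPKM over the 4 libraries, SMG5 (37.6) stood above UPF1 (29.3), the SMG8 row (10.0), SMG1 (9.89), UPF2 (8.91), SMG9 (6.56), UPF3B (6.37), UPF3A (4.89) and SMG6 (2.37). The ranges over the 4 libraries overlapped for 2 pairs of neighbours, the SMG8 row with SMG1 and SMG9 with UPF3B, while the other neighbours did not overlap. SMG5 took between 32.0% and 33.1% of the summed FPKM of the 9 in each library, and UPF1 between 24.4% and 26.5%. Both effectors thus stood at opposite ends of the order, and the ratio of SMG5 to SMG6 was 15.4 and 15.7 in the DMSO libraries and 16.4 and 16.1 in the SF1-8 libraries. The summed FPKM of the 9 was 119 and 111 in the DMSO libraries and 116 and 117 in the SF1-8 libraries, with both treated libraries inside the control range. The order, the shares and the ratio of SMG5 to SMG6 hold for FPKM and not for counts. FPKM are scaled to a length for each row, which is not given in the sources used here, so levels of different genes compare only on this scale. UPF1 had more counts than SMG5 in every library. With DMSO these were 14652 and 20767 against 11657 and 15781, and with SF1-8 21682 and 20514 against 16911 and 16062.

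The rest of the pathway was described by 5 lists with 48 genes, all of which were tested. Of these, 0 passed an adjusted p of 0.05 in the edgeR quasi-likelihood test, against 0.042% of all genes, and 3 had an unadjusted p under 0.05, against 4.33% of all genes. The numbers higher and lower with SF1-8 were 23 and 25. The groups did not overlap in 16 of the 48, against 34.2% of all rows tested. DESeq2 called 1 of the 48, ATF3, against 0.652% of all genes with an adjusted p.

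**Figure D4:**
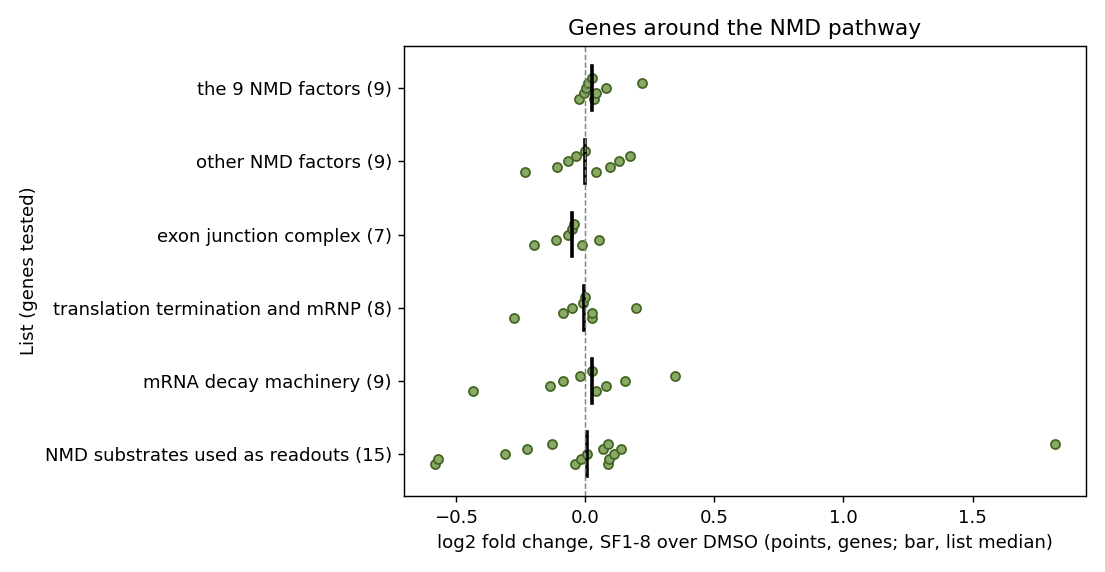
log2 fold change, SF1-8 over DMSO, of the 9 NMD factors and of the genes of 5 lists around the pathway (points), with the median of each list (bars). The list medians lie between -0.051 and 0.029, and ATF3, at 1.82, lies apart from the other points.

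Among 9 other NMD factors and assembly factors of the SMG1 kinase, 5 were higher and 4 lower, with a median of 0.00087. DHX34, a helicase that promotes remodelling of the UPF1 complex, was measured at an FPKM of 11.8 and 12.2 in the DMSO libraries and 10.8 and 11.1 in the SF1-8 libraries (log2 fold change -0.11, SE 0.081). The log2 fold changes of TTI1 and RUVBL1, which help to assemble kinases of the SMG1 family, were -0.23 and 0.17, with standard errors of 0.337 and 0.221.

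In the exon junction complex, the mark that splicing leaves on an mRNA, 1 gene was higher and 6 were lower, with a median of -0.051 and 0 of 7 past the adjusted threshold. PYM1, which takes the complex off mRNAs, was measured at an FPKM of 4.66 and 4.18 in the DMSO libraries and 3.68 and 3.87 in the SF1-8 libraries (log2 fold change -0.20, SE 0.118). CASC3 was at -0.11 and RNPS1 at 0.056 on the same scale. Among 8 genes of translation termination and mRNA binding, with a median of -0.0034, the release factors ETF1, GSPT1 and GSPT2 had log2 fold changes of 0.028, -0.086 and 0.20. The value of GSPT2 was 0.013 without SF1-8 2 and 0.37 without SF1-8 1. NCBP2, a subunit of the nuclear cap-binding complex, had 12.1 and 9.69 with DMSO and 9.02 and 8.54 with SF1-8 (log2 fold change -0.28, SE 0.110, 95% interval from -0.56 to 0.0050).

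Of 9 genes of the decay machinery, 5 were higher and 4 lower, with a median of 0.028. DCP2, the decapping enzyme, was measured at an FPKM of 18.3 and 21.5 in the DMSO libraries and 7.27 and 21.8 in the SF1-8 libraries. SF1-8 1 stood apart from the other libraries, and the log2 fold change of DCP2 was -0.43 (SE 0.493) with it and 0.15 without it. CNOT8, a deadenylase subunit, had 5.31 and 10.4 with DMSO and 8.47 and 11.3 with SF1-8, where DMSO 1 was the low library, and a log2 fold change of 0.35 (SE 0.355) that was -0.080 without DMSO 1. DIS3 and DCP1B were at -0.14 and 0.15 on the same scale.

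Of 15 genes whose transcripts are often used to read out NMD activity, 8 were higher and 7 lower, and the median change on the log2 scale was 0.0071. GAS5, a noncoding RNA degraded by NMD, was measured at an FPKM of 26.9 and 25.4 in the DMSO libraries and 25.3 and 26.3 in the SF1-8 libraries, and GADD45A, a growth-arrest gene, 15.7 and 16.1 with DMSO and 16.6 and 13.9 with SF1-8. ATF3, a stress transcription factor, had 0.321 and 0.127 with DMSO and 0.763 and 0.775 with SF1-8. For ATF3 the fold change on the log2 scale was 1.82 (SE 0.438, adjusted p = 0.970) in the edgeR quasi-likelihood test, and the adjusted p was 0.0498 by DESeq2. With the other alternatives the adjusted p of ATF3 was at least 0.207. DDIT3, which encodes the stress factor CHOP and shares its row with AC022506, had 15.6 and 13.2 with DMSO and 8.54 and 10.4 with SF1-8. For DDIT3 the fold change on the log2 scale was -0.58 (SE 0.146, unadjusted p = 0.010, adjusted p = 0.970) in the edgeR quasi-likelihood test. The row of ZFAS1, a noncoding RNA that hosts small nucleolar RNAs, also names AL049766, SNORD12B and SNORD12, so its values are not of ZFAS1 alone. This shared row stood at an FPKM of 5.80 and 5.79 for DMSO against 4.77 and 4.98 for SF1-8. The same quasi-likelihood test put the change of the row at -0.22 on the log2 scale (SE 0.085, unadjusted p = 0.046, adjusted p = 0.970). CDKN1A and RP9P were at -0.57 and 0.14, and CDKN1A was at -0.057 without SF1-8 2 and -1.36 without SF1-8 1. ATF3 and DDIT3, both also targets of stress signalling, therefore had opposite signs, and neither passed the adjusted threshold with edgeR.

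Over the 4 libraries, the mean profile of the 9, centred on 0, was 0.022 and -0.067 in DMSO 1 and DMSO 2 and 0.0046 and 0.040 in SF1-8 1 and SF1-8 2, in log2 normalised counts. Of 14077 other tested rows with a mean FPKM of at least 1, those with the smallest root mean square difference from it were TPX2 (0.0033), STX7 (0.0045) and STMP1 (0.0074). With 4 libraries and a nearly flat profile this is a description of likeness only.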

How the data were processed

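Gene-level RNA-seq values of 4 libraries were used. The submitters' processing notes name cutadapt, FastQC, Bowtie2, HISAT2 and StringTie with hg38, and the versions, the strand setting and the handling of reads with several positions are not given in the sources used here. The authors deposited estimated counts, as whole numbers without normalization, and FPKM values, normalized by the authors for length and depth, in which 0.0001 stands for 0. Identifiers are those of a merged StringTie assembly or of Ensembl, and a row can name several genes. Of the Ensembl rows, 87.4% had the same start in GENCODE version 29 (GRCh38).

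Rows that name no gene, between 0.358% and 0.421% of the counts, entered neither library sizes nor tests. Counts were filtered by filterByExpr, normalized by TMM (factors from 0.973 to 1.05) and compared with the quasi-likelihood test of edgeR over the 26167 genes kept, two-sided, with Benjamini-Hochberg adjustment and a threshold of 0.05 (R 4.3.3, edgeR 4.0.16, limma 3.58.1, DESeq2 1.42.0). Standard errors were taken as the log2 fold change over the square root of F, and intervals from the t distribution with the fit's degrees of freedom. FPKM are given as mean ± SD or per library. Windows of 75 bases of each member's longest coding transcript were searched on both strands in all GENCODE transcripts. The scripts were tested on simulated data. The members and lists were chosen with earlier results of these data known. Named by rule were the 9 members, genes sharing their rows, copies with a mean count of at least 10, for each list the genes past the threshold and the 2 highest and 2 lowest log2 fold changes, and the 3 nearest profiles, and some genes the rule names are not reported here. GAS5, GADD45A and ZFAS1 were named after their values were seen. Alternatives were DESeq2, no filter, upper-quartile factors, limma on log2(FPKM + 1) and log2(FPKM + 0.1), removal of ribosomal RNA rows, summed rows of a symbol, the replicate number as a block, each library left out and, chosen after seeing the data, counts divided by 4.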

Additional observations from a re-analysis of the deposited data

How the results depend on the processing

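The number of the 9 NMD factors past an adjusted p of 0.05 was 0 with each of the 13 alternatives, and the median of their log2 fold changes was between 0.0026 and 0.053. The number over all genes was 11, and it became 164 with DESeq2, 31 with no filter on low counts, 0 with limma on log2(FPKM + 1) and on log2(FPKM + 0.1) (1493 and 1497 at an unadjusted p under 0.05), 0 without DMSO 1 (1341 unadjusted), 21 without DMSO 2, 30 without SF1-8 1 and 28 without SF1-8 2. A lone library left in a group is assumed to vary like the other group. In the pathway lists DESeq2 called 1 gene, ATF3, against 0. The cause of these differences was not tested. Libraries share only a replicate number, with a correlation of 0.016 between the deviations of the same-numbered pairs. With the replicate number as a block, 0 genes passed (971 at an unadjusted p under 0.05), and the log2 fold change of UPF3A was -0.00066. For the UPF3A to UPF3B ratio the block is no further check. Each replicate number occurs once in each group, so the difference of group means cannot change with it.

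Changes near 0 turned sign. UPF3A was at -0.010 with upper-quartile factors, -0.023 with limma on log2(FPKM + 1), -0.028 with log2(FPKM + 0.1), -0.0074 with counts divided by 4 and -0.029 with its rows summed. SMG1 was at -0.0046, -0.015, -0.016 and -0.0017 in the first 4 of these, and UPF3B at 0.0038 with no filter. With a library left out, the log2 fold change ranged from -0.013 to 0.090 for UPF1, from -0.044 to 0.11 for UPF2, from -0.28 to 0.26 for UPF3A, from -0.068 to 0.068 for UPF3B, and the UPF3A to UPF3B ratio from -0.32 to 0.32. The ranges were -0.76 to 0.17 for TTI1, -0.11 to 0.54 for RUVBL1, -0.24 to 0.0093 for CASC3, -0.27 to 0.13 for GSPT1, -0.0030 to 0.065 for ETF1, -1.42 to 0.15 for DCP2, -0.40 to 0.095 for DIS3, -0.080 to 0.97 for CNOT8, -0.015 to 0.33 for DCP1B, -0.024 to 0.29 for RP9P, -0.17 to -0.038 for DHX34, 0.0087 to 0.11 for RNPS1, 0.013 to 0.37 for GSPT2 and -1.36 to -0.057 for CDKN1A. Of the copies, they were -0.18 to 0.24 for the SMG1P4 row, -0.18 to 0.081 for the SMG1P6 row with BOLA2, -2.05 to 0.0082 for UPF3AP1, -0.60 to 1.46 for UPF3AP2 and -0.85 to 0.17 for UPF3AP3. SMG5, SMG6, SMG8 and SMG9 kept their sign in all alternatives run, with ranges of 0.027 to 0.065 for SMG5, -0.020 to -0.014 for SMG6, 0.11 to 0.35 for SMG8 and 0.010 to 0.16 for SMG9 with a library left out. The filter on low counts has no bearing on the UPF3A to UPF3B ratio and gave no further value.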
